A study of Mus musculus with 8 samples.

Results

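Lipins and lipid phosphate phosphatases take the phosphate off lipids. The 8 genes described here are Lpin1, Lpin2 and Lpin3, the lipins, and Plpp1 to Plpp5, the phospholipid phosphatases, formerly named Ppap2a, Ppap2c, Ppap2b, Ppapdc1a and Ppapdc1b. They are 8 of 25050 genes measured and lie, by the array annotation, on mouse chromosomes 12 (Lpin1), 17 (Lpin2), 2 (Lpin3), 13 (Plpp1), 10 (Plpp2), 4 (Plpp3), 7 (Plpp4) and 8 (Plpp5). The members were chosen by gene family with earlier results for Lpin1 and Plpp4 known, so their values are a description and their calls are not independent evidence. Where a gene has several probe sets, the set was selected on its mean over all arrays, but each of the 8 genes had 1 probe set, listed under its current symbol, so that no measured level decided which was used.

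Lipins act at the endoplasmic reticulum, where they need magnesium and turn phosphatidate into diacylglycerol, the last intermediate before triglyceride and the branch point to phosphatidylcholine and phosphatidylethanolamine. Milk fat is largely triglyceride, made in the alveolar cells and secreted as globules. The phospholipid phosphatases are integral membrane proteins that work without magnesium. Plpp1, Plpp2 and Plpp3 face the cell exterior or the lumen of organelles and break down phosphatidate, lysophosphatidate, sphingosine 1-phosphate and ceramide 1-phosphate, whereas Plpp4 and Plpp5 form a separate branch that acts on phosphatidate and diacylglycerol pyrophosphate.

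RNA was taken from mammary epithelial cells of wild-type female FVB mice in their first pregnancy or lactation, 4 samples at day 14 of pregnancy (secretory differentiation) and 4 at day 4 of lactation (secretory activation), and each was hybridised to 1 Affymetrix whole-transcript array. Adipocytes had been depleted by enzymatic digestion of the tissue, and all 8 samples were untreated wild type. The series concerns cholesterol secretion into milk, and these samples compare the stages. Nothing in the labels ties an array to its own mother, so the tests rest on the spread among the deposited samples, part of which may be technical. All values are log2 values made by the authors with GC-RMA, which ran from 2.04 to 13.03, and levels of different genes are not compared because their probes differ.

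Correlation across genes, themselves not independent, was 0.9865 or more for arrays of 1 stage and 0.9777 or less for arrays of different stages. Epithelial markers were present at both stages, with the keratin Krt8 at 10.93 ± 0.19 in pregnancy and 9.97 ± 0.13 in lactation (SD, n = 4) and the casein Csn2 at 12.36 ± 0.05 and 12.72 ± 0.07. Of the 8 luminal and alveolar markers 4 rose (Csn2, Wap, Lalba and Elf5) and 3 fell (Krt8, Krt18 and Cdh1), and of the 6 basal markers 1 fell (Krt14). Markers counted as rising or falling had an adjusted p under 0.05 in limma. Over all genes 9.73% were called higher and 16.1% lower. Markers of other cells were also detected. The adipocyte gene Adipoq averaged 6.47 in lactation and the endothelial gene Cdh5 9.66. Fabp4, also on the adipocyte list, averaged 10.59 but did not follow Adipoq on every lactation array. Both were highest on replicate 1. On replicate 4 Adipoq was lowest, at 5.54, while Fabp4 read 10.81, above its 10.02 on replicate 2 and 10.56 on replicate 3. Which cells the Fabp4 signal came from was not tested. Of the 6 T cell markers 5 fell, and their mean ran from 5.78 to 7.30 on the pregnancy arrays and from 4.76 to 5.59 on the lactation arrays. Of the 6 fibroblast markers 5 fell, with means from 8.06 to 8.87 and from 6.49 to 7.82. Of the 6 macrophage markers 3 fell, with means from 7.26 to 7.96 and from 5.89 to 7.19. The 7 adipocyte markers, of which 1 rose, averaged from 5.62 to 7.45 and from 6.70 to 8.11. These cells' part in the members' changes was not tested. In such bulk samples fewer cells of a type and less RNA per cell cannot be told apart.

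The members did not move as a block. Lpin1, Plpp4 and Plpp5 rose at lactation day 4, Plpp2 fell, and Lpin2, Lpin3, Plpp1 and Plpp3 did not pass the threshold, an adjusted p under 0.05 in limma. Thus 4 of 8 members were called, 3 higher and 1 lower, where 25.8% of all genes were called, 9.73% higher and 16.1% lower. A change of at least 2-fold was called for 3 members and for 3.29% of all genes. The arrays of the stages did not overlap for 4 members and for 29.6% of all genes. The members' median log2 change was 0.34, against 0.01 over all genes.

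Over all genes 2438 were called higher and 4025 lower. That split depended on scaling: it was 2575 and 2926 after quantile normalization, 3719 and 3311 with the array medians aligned, and 6089 and 3041 with the mean of the brighter 60% of genes aligned. Without pregnancy day 14 replicate 3 it was 1537 and 2878. The direction and call of Lpin1, Plpp2, Plpp4 and Plpp5 held under each of these settings.

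**Figure D1:**
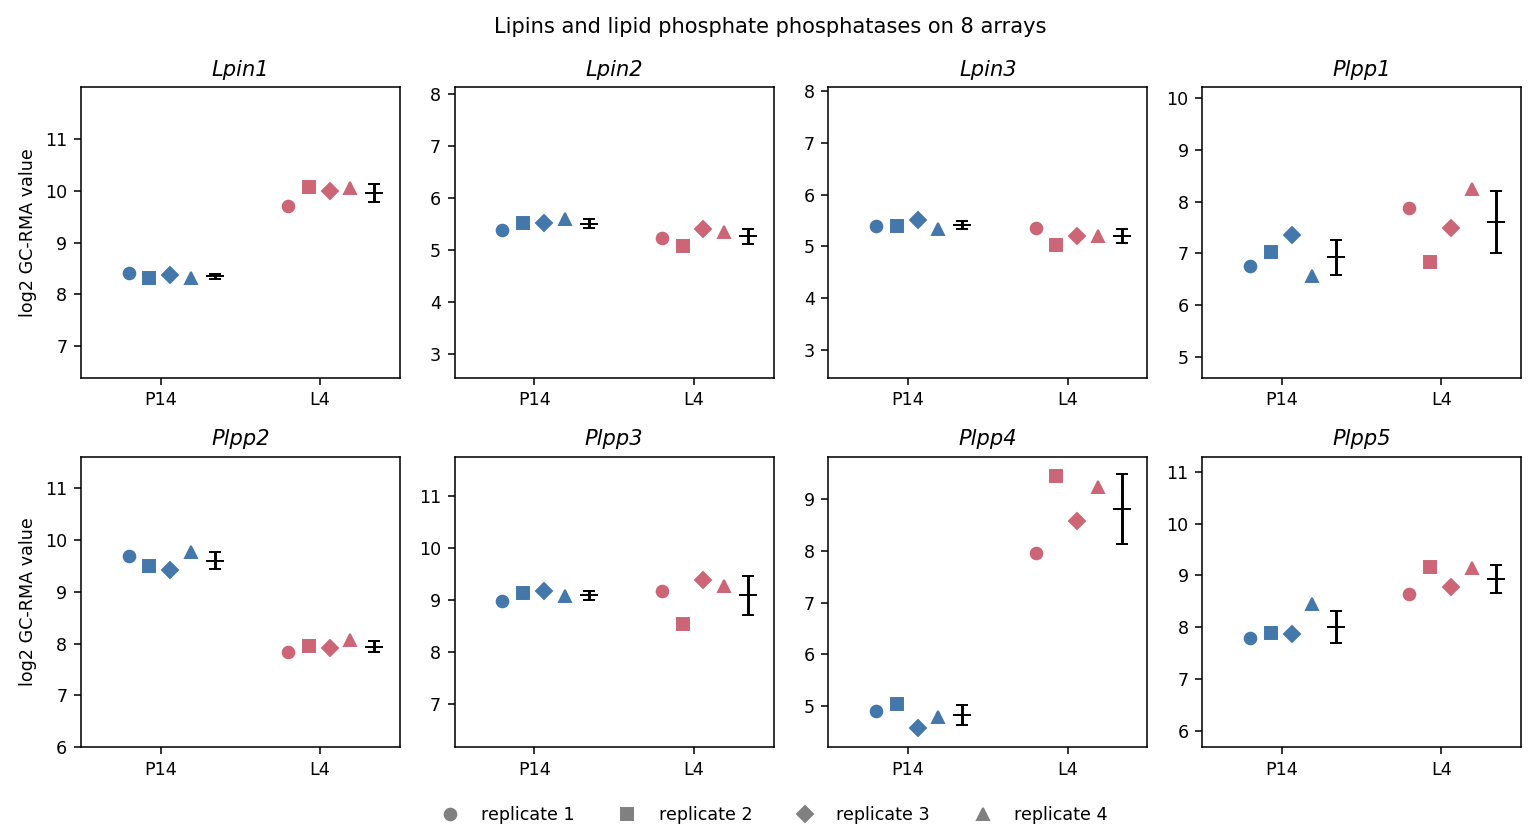
Log2 GC-RMA value of each of the 8 genes on 4 pregnancy day 14 (P14, blue) and 4 lactation day 4 (L4, red) arrays, with marker shapes for replicates and black bars for mean ± SD; each y axis spans the same number of log2 units around a different level. Lpin1, Plpp4 and Plpp5 lay higher and Plpp2 lower on all 4 lactation arrays, while the stages overlap for the other 4 genes.

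The promoters of the members with the largest changes are shown because these genes went different ways. For Lpin2, which was not called, the window that matched the first motif searched is also shown. The windows are from RefSeq (GRCm38.p6), run 5′ to 3′ on the strand of the gene and cover 250 bases before to 50 bases after an annotated start. Windows were found for 6 of the 8 genes, 9 windows in all. Capitals mark a match to a searched motif.
Plpp4, chr7:129256844-129257143, plus strand: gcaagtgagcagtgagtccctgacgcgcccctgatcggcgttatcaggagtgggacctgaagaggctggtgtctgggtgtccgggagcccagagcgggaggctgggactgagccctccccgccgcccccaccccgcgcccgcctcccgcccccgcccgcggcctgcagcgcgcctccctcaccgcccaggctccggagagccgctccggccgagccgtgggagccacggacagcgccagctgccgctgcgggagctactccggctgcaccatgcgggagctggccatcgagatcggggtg
Lpin1, chr12:16610917-16611216, minus strand: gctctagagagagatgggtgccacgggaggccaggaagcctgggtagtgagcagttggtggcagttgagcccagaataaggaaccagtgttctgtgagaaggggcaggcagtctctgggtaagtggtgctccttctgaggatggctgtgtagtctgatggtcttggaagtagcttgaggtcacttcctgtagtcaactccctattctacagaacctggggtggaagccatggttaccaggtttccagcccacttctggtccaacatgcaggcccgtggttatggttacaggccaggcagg
Plpp2, chr10:79533738-79534037, minus strand: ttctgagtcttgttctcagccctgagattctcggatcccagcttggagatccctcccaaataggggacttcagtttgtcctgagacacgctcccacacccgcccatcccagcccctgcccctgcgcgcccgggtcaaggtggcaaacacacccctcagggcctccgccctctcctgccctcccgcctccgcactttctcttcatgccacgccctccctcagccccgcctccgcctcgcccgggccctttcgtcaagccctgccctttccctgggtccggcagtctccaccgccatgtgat
Lpin2, chr17:71204404-71204703, plus strand: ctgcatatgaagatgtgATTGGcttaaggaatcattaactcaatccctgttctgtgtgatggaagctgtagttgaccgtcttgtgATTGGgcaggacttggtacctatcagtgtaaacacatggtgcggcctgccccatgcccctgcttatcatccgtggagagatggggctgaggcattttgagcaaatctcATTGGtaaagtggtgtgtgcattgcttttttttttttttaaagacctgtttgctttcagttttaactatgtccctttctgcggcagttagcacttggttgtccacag

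Each of 4 motifs was searched on both strands. The first was CCAAT, the box bound by NF-Y, present in 37.4% of all 32851 windows. The Lpin2 window shown holds it 3 times, always in reverse complement, and it was the only one of the 9 member windows with a match. The Lpin2 windows not shown, with G or C at 68.7% and 80.7% of positions, hold no CCAAT. Whether the match bears on the level of Lpin2 was not tested. Plpp1 and Plpp5 had no window to search. The second was the E-box CACGTG, present in 7.15% of all windows, in 1 of 3 windows of Lpin2 and in 1 of 2 of Lpin3. The remaining motifs were TTCNNNGAA, which STAT factors bind and which 8.30% of all windows hold, and a core of the sterol response element, TCACNCCAC, which 1.24% hold. Neither was in a member window, and no match overlapped that of another motif. The windows of Plpp4, Lpin1 and Plpp2 held none of the 4, which says only that these letters are not in these windows. Their base composition differed, with G or C at 74.3% of positions in Plpp4, 65.3% in Plpp2 and 55.3% in Lpin1, against a median of 52.7% over all windows.

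Lpin1 encodes lipin 1, the main phosphatidate phosphatase of adipose tissue and muscle, whose loss causes the fatty liver dystrophy phenotype in mice; it also acts in the nucleus as a transcriptional coactivator. Its log2 values were 8.41, 8.31, 8.38 and 8.31 on the pregnancy arrays and 9.70, 10.08, 9.99 and 10.05 on the lactation arrays. Every lactation array lay at least 1.29 log2 units above every pregnancy array, and the pregnancy arrays spanned only 0.10. Lpin1 rose 3.04-fold (95% interval 2.64 to 3.50), a log2 change of 1.60 (SE 0.092, limma adjusted p = 4.42e-06).

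Lpin2 encodes lipin 2, a phosphatidate phosphatase prominent in liver and, in humans, mutated in Majeed syndrome. It read 5.39, 5.51, 5.52 and 5.59 in pregnancy and 5.22, 5.08, 5.40 and 5.34 in lactation. Only lactation replicate 3 reached into the pregnancy range, by 0.01. The log2 change, lactation minus pregnancy, was -0.24 (95% interval -0.45 to -0.03, limma adjusted p = 0.0842, unadjusted 0.0274).

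Lpin3 encodes lipin 3, the third and least studied lipin. It read 5.40, 5.39, 5.52 and 5.34 in pregnancy and 5.36, 5.02, 5.21 and 5.20 in lactation. Lactation replicate 1 lay above pregnancy replicate 4, and the other 3 lactation arrays lay below all pregnancy arrays. The log2 change was -0.21 (95% interval -0.42 to -0.01, limma adjusted p = 0.117, unadjusted 0.0442). Of the 3 lipins, therefore, 1 rose, none fell past the threshold and 2 were not called, with intervals that admit a fall of up to 1.37-fold for Lpin2 and 1.34-fold for Lpin3.

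Plpp4 had the largest change of the members and the 6th largest rise of all 25050 genes. Its log2 values were 4.91, 5.05, 4.58 and 4.80 in pregnancy and 7.95, 9.44, 8.58 and 9.23 in lactation. The stages were separated by 2.90 log2 units, while the lactation arrays differed among themselves by up to 1.49. Plpp4 rose 15.6-fold (95% interval 10.1 to 24.1), a log2 change of 3.96 (SE 0.281, limma adjusted p = 1.49e-05), from 4.84 ± 0.20 to 8.80 ± 0.67 (SD, n = 4). Whether the pregnancy values lay above the array background was not tested, and the size of the fold depends on it. The same holds for the low values of Lpin2 and Lpin3 at both stages.

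Plpp5, the closest relative of Plpp4, moved the same way by less. It read 7.80, 7.89, 7.87 and 8.45 in pregnancy and 8.64, 9.17, 8.78 and 9.14 in lactation. Pregnancy replicate 4 stood apart from the other 3 and came within 0.19 of the lowest lactation array. Plpp5 rose 1.91-fold (95% interval 1.47 to 2.47), a log2 change of 0.93 (SE 0.169, limma adjusted p = 0.00325).

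Plpp2, an ecto-phosphatase linked to entry into S phase in cultured cells, was the 1 member that fell. It read 9.69, 9.50, 9.42 and 9.77 in pregnancy and 7.83, 7.96, 7.91 and 8.07 in lactation. The lowest pregnancy array lay 1.35 log2 units above the highest lactation array. The level was 3.14-fold lower in lactation (95% interval 2.71 to 3.64), a log2 change of -1.65 (SE 0.096, limma adjusted p = 4.46e-06), the 82nd largest fall of all genes. Of the 8 luminal and alveolar markers 3 also fell, Krt8, Krt18 and Cdh1, by 0.96, 1.03 and 1.19 on the log2 scale. Another 4 rose, Elf5, Csn2, Wap and Lalba, by 0.29, 0.36, 0.85 and 1.12, and Epcam was not called. Csn2, Wap and Lalba averaged 12.72, 12.74 and 12.29 in lactation, near the highest value on the arrays, 13.03. Whether the upper end of the scale limited their rises was not tested. The part of epithelial cells in the Plpp2 value was not tested.

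**Figure D2:**
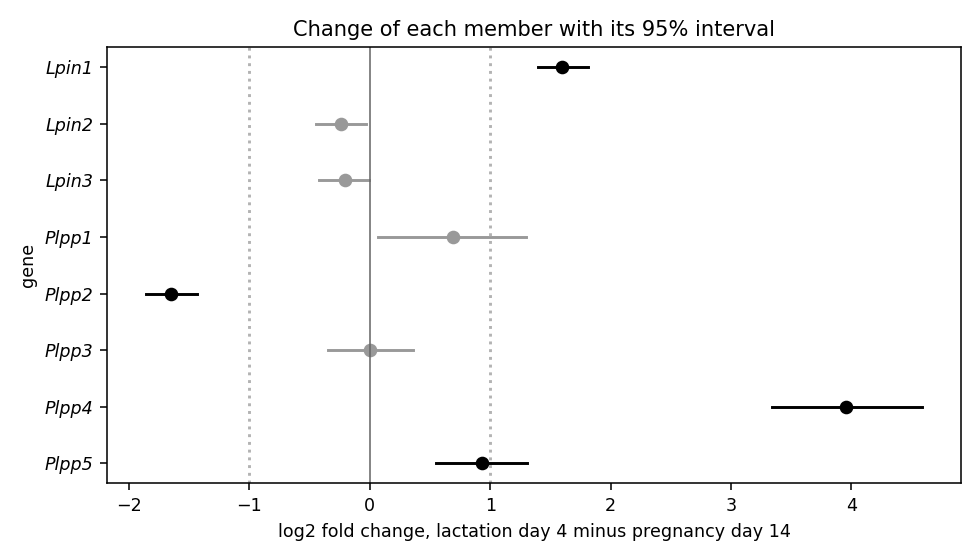
Log2 fold change of each gene, lactation day 4 minus pregnancy day 14, with its 95% interval from limma (n = 4 per stage); black marks an adjusted p under 0.05, and dotted lines mark a 2-fold change. Plpp4 (3.96) and Lpin1 (1.60) lie to the right and Plpp2 (-1.65) to the left of the 2-fold lines, and the widest uncalled interval is that of Plpp1.

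Plpp1 is a widely expressed surface phosphatase that degrades lysophosphatidate. It read 6.76, 7.03, 7.35 and 6.57 in pregnancy and 7.88, 6.83, 7.49 and 8.24 in lactation. Lactation replicate 2 lay inside the pregnancy range and the other 3 lactation arrays above it. The log2 change was 0.69 (95% interval 0.07 to 1.30, limma adjusted p = 0.0965). Without lactation replicate 2 it was 0.95 (limma adjusted p = 0.0148), and with the brighter 60% of genes aligned 0.78 (adjusted p = 0.0471). Without lactation replicate 4 it was 0.48 (limma adjusted p = 0.202), without pregnancy replicate 4 0.57 (0.203) and without lactation replicate 1 0.60 (0.201).

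Plpp1 went with the endothelial markers from array to array. The mean of 6 such markers (Pecam1, Cdh5, Kdr, Tek, Emcn and Egfl7) was 7.97, 8.41, 8.64 and 7.75 in pregnancy and 8.53, 7.39, 8.39 and 8.83 in lactation. Within each stage it ranked the 4 arrays in the same order as Plpp1, with lactation replicate 2 and pregnancy replicate 4 lowest. None of the 6 markers was called between the stages. The difference between Plpp1 and this mean was -1.21, -1.38, -1.29 and -1.18 in pregnancy and -0.65, -0.56, -0.90 and -0.59 in lactation, so that the stages no longer overlapped. With the marker mean as a covariate the log2 change of Plpp1 was 0.60 (SE 0.101 against 0.278 without it, limma adjusted p = 0.00276). The difference and the fit were both chosen after the shared order was seen, from 7 cell type lists. The smaller error of the fit restates that order. Neither its call nor the loss of overlap is independent evidence.

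Plpp3, an ecto-phosphatase needed for blood vessel development in mice and abundant in endothelium, had the same mean at both stages. It read 8.98, 9.14, 9.18 and 9.07 in pregnancy and 9.18, 8.54, 9.38 and 9.27 in lactation. Lactation replicate 2 was the lowest array, and the other lactation arrays lay at or above the highest pregnancy value. The basal, endothelial, fibroblast and macrophage marker means were also lowest there. Plpp3 ranked the lactation arrays, but not the pregnancy arrays, as the macrophage markers did. It shared the order of the endothelial markers at neither stage. The part of these cells was not tested. The log2 change was 0.00 (95% interval -0.35 to 0.36, limma adjusted p = 0.992). Across the alternatives it ran from -0.09 to 0.19 and was not called, so no direction can be given.

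**Figure D3:**
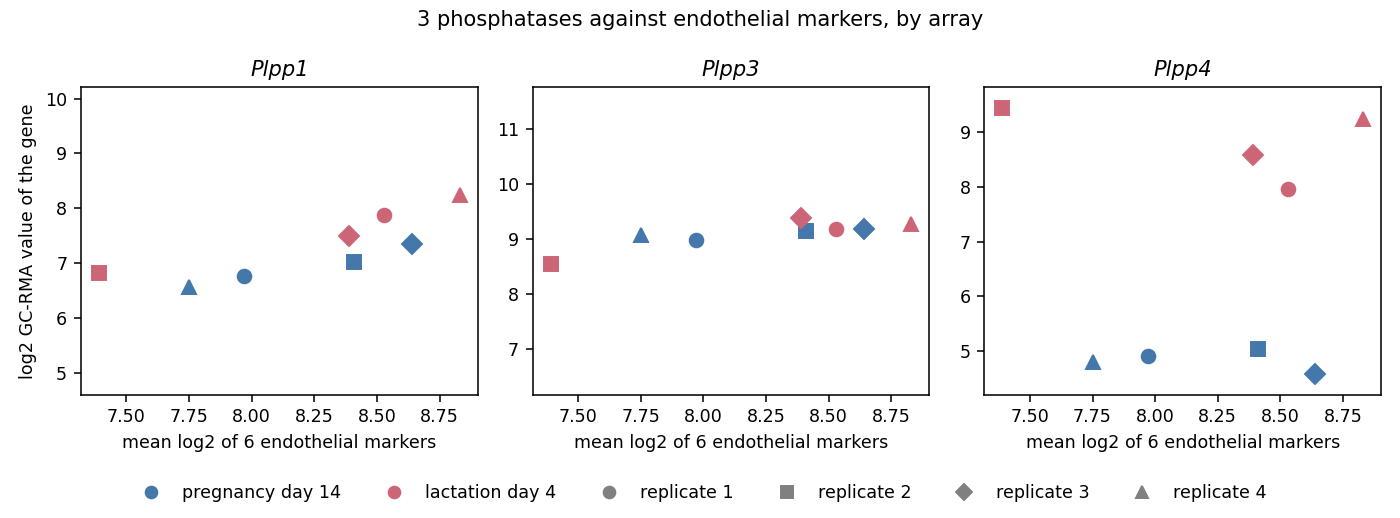
Log2 value of Plpp1, Plpp3 and Plpp4 (y axes, spanning equal numbers of log2 units) against the mean log2 value of 6 endothelial markers (x axis) on the 8 arrays, coloured by stage, with shapes for replicates. Plpp1 is higher on arrays with more endothelial signal within each stage, lactation replicate 2 is lowest on the x axis at 7.39, and Plpp4 separates by stage whatever the marker mean.

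Likeness to the 3 members that changed at least 2-fold was measured as the root mean square difference in log2 units over the 8 arrays after subtracting each gene's own mean. Lgals12, encoding galectin-12, was most like Lpin1 (0.061), followed by Retreg1 (0.107) and Hephl1 (0.125), with log2 changes of 1.68, 1.52 and 1.63. Cgnl1 (0.120), Lpcat1 (0.123) and Nipsnap1 (0.136) were most like Plpp2. For Plpp4 the nearest were Egf, encoding epidermal growth factor (0.327), Pcp4 (0.442) and the lipid droplet gene Cidea (0.451). The profiles share the 8 arrays and the difference between the stages, and the likeness is a description.

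The genes around these enzymes were described in 8 lists of 68 genes, all measured. In them 12 genes were called higher and 11 lower, 23 in all, with a median log2 change of 0.03. The split was 15 and 8 after quantile normalization, 14 and 9 with array medians aligned and 16 and 9 with the brighter genes aligned. With the values as deposited, 25.8% of all genes were called, 9.73% higher and 16.1% lower. The counts of each list below are small and are to be read beside these shares.

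Upstream of the lipins, 2 of 10 glycerolipid acyltransferases rose, 1 fell and 7 were not called (median 0.13). Agpat1, which acylates lysophosphatidate to phosphatidate, the lipins' substrate, rose from 8.36 ± 0.10 to 9.47 ± 0.18 (log2 change 1.11, SE 0.101, limma adjusted p = 6.31e-05). Gpat4, the acyltransferase of the first step that mice need for normal milk fat, rose by 0.68 (limma adjusted p = 0.00185). Agpat3, an acyltransferase of the same family as Agpat1, went the other way, from 8.63 ± 0.13 to 7.39 ± 0.13 (-1.25, SE 0.098, limma adjusted p = 2.79e-05). Gpam, the mitochondrial enzyme of the first step, had a log2 change of -0.06 (limma adjusted p = 0.719).

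Of the 7 genes that use diacylglycerol for triglyceride or phospholipid, 3 rose, none fell and 4 were not called (median 0.02). Dgat1, a triglyceride-forming acyltransferase without which mice do not lactate, rose by 0.85 (SE 0.193, limma adjusted p = 0.0102). Cept1 and Chpt1, which pass phosphocholine (and for Cept1 also phosphoethanolamine) to diacylglycerol, rose by 0.74 and 0.69 (limma adjusted p = 0.000712 and 0.00206). Dgat2, the other triglyceride-forming enzyme, varied by an SD of 0.70 in pregnancy and 0.96 in lactation, and its log2 change of -0.34 was not called (limma adjusted p = 0.610). It ranked the pregnancy arrays as the adipocyte marker mean did, and both were highest on lactation replicate 1 and lowest on lactation replicate 4. The part of adipocytes in its spread was not tested. Its change ran from -0.77 without lactation replicate 1 to 0.00 without lactation replicate 4, called in neither.

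Among 11 diacylglycerol kinases and CDP-diacylglycerol synthases, which lead away from diacylglycerol or use phosphatidate, none rose, 3 fell and 8 were not called (median -0.04). The kinases Dgkd (-0.45, limma adjusted p = 0.00403) and Dgka (-0.47, adjusted p = 0.0411) fell. The call of Dgka ended under 9 of 19 alternatives, among them leaving out any 1 array but lactation replicate 3 or pregnancy replicate 4 (limma adjusted p 0.0662 to 0.0983). Dgkz fell by 0.59 on its brighter probe set, while its other probe set was higher in lactation, by 0.50, and their mean had a log2 change of -0.04 (limma adjusted p = 0.751), so its direction is uncertain.

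The list of lipin regulators held 2 genes that rose, 1 that fell and 7 that were not called (median 0.16). Nr3c1, the glucocorticoid receptor, an inducer of Lpin1 in liver and fat, rose by 0.80 (SE 0.120, limma adjusted p = 0.00121) and the nuclear receptor Ppara by 0.56 (adjusted p = 0.00632). Ppargc1a, a coactivator that partners lipin 1 in mouse liver, fell by 0.76 (limma adjusted p = 0.00858). Ctdnep1 and Cnep1r1, the subunits of the phosphatase that activates lipins, had log2 changes of 0.05 and -0.16 (limma adjusted p = 0.764 and 0.225).

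**Figure D4:**
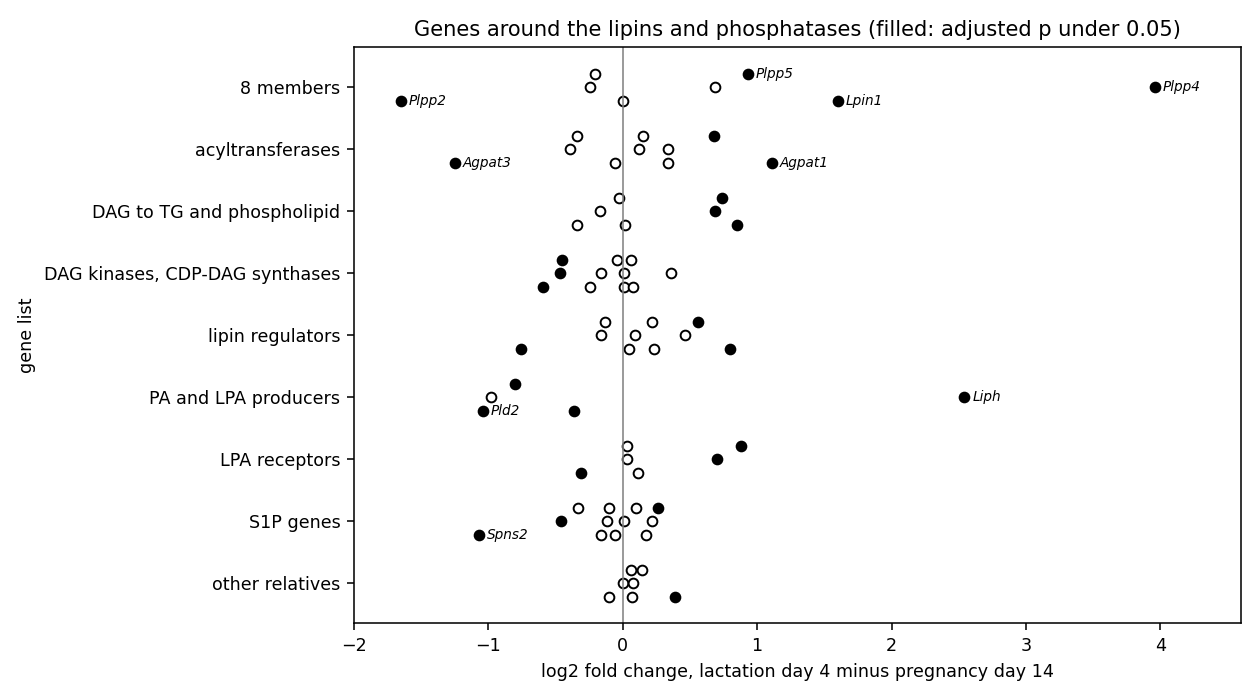
Log2 fold change, lactation day 4 minus pregnancy day 14 (x axis), of the 8 members and of 68 genes in 8 lists (rows; DAG diacylglycerol, TG triglyceride, PA phosphatidate, LPA lysophosphatidate, S1P sphingosine 1-phosphate); filled points had an adjusted p under 0.05, vertical offsets within a row carry no meaning, and called genes with changes of 0.9 or more in size are named. Plpp4 (3.96) and Liph (2.54) lie farthest right and Plpp2 (-1.65) farthest left.

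On the side of lysophosphatidate, a substrate of the surface phosphatases, 1 of 5 producers of phosphatidate or lysophosphatidate rose, 3 fell and 1 was not called (median -0.80). Liph, a phospholipase that cuts phosphatidate to lysophosphatidate at the cell surface, read 5.12, 4.82, 4.94 and 5.55 in pregnancy and 7.25, 8.03, 7.52 and 7.77 in lactation. The stages did not overlap, and Liph rose 5.80-fold (95% interval 4.30 to 7.83, log2 change 2.54, limma adjusted p = 2.26e-05). Whether its pregnancy values lay above the array background was not tested, and the size of the fold depends on it. The phospholipases D, which make phosphatidate from phosphatidylcholine, fell, Pld2 by 1.04 (SE 0.173, limma adjusted p = 0.00203) and Pld1 by 0.80 (adjusted p = 0.00172). The acylglycerol kinase Agk fell by 0.36 (limma adjusted p = 0.0172), a call that ended after quantile normalization (0.149) and without pregnancy replicate 3 (0.0568). Enpp2, encoding autotaxin, which makes lysophosphatidate outside cells, had a log2 change of -0.98 that missed the threshold (limma adjusted p = 0.0508). It read 7.25 on pregnancy replicate 2 and from 5.63 to 5.72 on the other pregnancy arrays. Without that array its change was -0.59 (limma adjusted p = 0.0185), without pregnancy replicate 4 it was -1.13 (adjusted p = 0.0462), and without the dimmest 40% of genes the adjusted p was 0.0403. The fibroblast, macrophage and T cell marker means were also highest on pregnancy replicate 2, and their part was not tested.

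Of 6 lysophosphatidate receptors, 2 rose, 1 fell and 3 were not called (median 0.07). Lpar1 rose by 0.88 (SE 0.161, limma adjusted p = 0.00328) and Lpar6, a receptor that acts with Liph in human hair growth, by 0.70 (adjusted p = 0.0137). Lpar2 fell by 0.31 (limma adjusted p = 0.0430), a call that ended under 9 of 19 alternatives, among them leaving out any 1 array but lactation replicate 1 or pregnancy replicate 3 (0.0683 to 0.0988). In the sphingosine 1-phosphate list 1 of 12 genes rose, 2 fell and 9 were not called (median -0.08). The exporter Spns2 fell from 8.82 ± 0.34 to 7.76 ± 0.33 (-1.07, limma adjusted p = 0.00362) and the lyase Sgpl1 by 0.46 (adjusted p = 0.0298). The call of Sgpl1 ended under 6 of 19 alternatives, among them leaving out any 1 array but lactation replicates 3 and 4 and pregnancy replicate 3 (0.0576 to 0.0794). The receptor S1pr5 rose by 0.26 (limma adjusted p = 0.0240), a call that ended under 5 of 19, among them without lactation replicate 3 or pregnancy replicate 1, 3 or 4 (0.0507 to 0.0695). The other relatives of the phosphatases, Plpp6, Plpp7 and Plppr1 to Plppr5, ranged from -0.10 to 0.39 (median 0.07), with 1 of 7 called, Plppr4 (0.39, limma adjusted p = 0.0271). That call ended under 6 of 19 alternatives, among them without lactation replicate 1 or 3 or pregnancy replicate 1, 2 or 3 (0.0538 to 0.0736).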

How the data were processed

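The authors deposited log2 values per probe set and array. The submitters' processing notes name GCRMA and Partek. The sources used here give no tool versions and no build for the probe annotation. Both deposited tables held 35556 probe sets with identical values. Probe sets with a gene symbol (26836) were matched to current symbols through RefSeq (GRCm38.p6, for names and promoter windows only), giving 25050 genes. The brightest probe set was kept for the 975 genes with several.

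Stages were compared with limma 3.58.1 (R 4.3.3), empirical Bayes with an intensity trend, no block, and Benjamini-Hochberg adjustment over all 25050 genes. The median half-width of a 95% interval was 0.21; the small number of arrays limits the precision. The procedure was tested on simulated data with independent noise, in which far fewer genes were shifted than were called here. It called 41.79% of log2 shifts of 0.5 and 89.55% of shifts of 1.0, and 8 of 162 calls were false. An uncalled small change is therefore no sign that a gene did not change. Members, lists and tests were chosen with earlier results of these data known. Named by rule were all 8 members, every called gene of the pathway lists, and the 3 profiles nearest to each member that changed at least 2-fold. Dgat2, Enpp2, Gpam, Ctdnep1 and Cnep1r1 were added after their values were seen. Alternatives covered the variance model, array weights, scaling, a filter on dim genes, a replicate block, each array left out, averaged probe sets, the second table and, chosen after seeing the data, an endothelial covariate.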

Additional observations from a re-analysis of the deposited data

Results flagged for a closer look

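Of 16 groups of 4 arrays (8 genes at each stage), 1 held an array far from the other 3, where chance flags about 1 group in 20. Plpp5 on pregnancy day 14 replicate 4 read 8.45 against 7.80 to 7.89 on the other pregnancy arrays, a gap of 0.863 of the group's range, above the 95% limit of Dixon's test. On that array the mean of the 7 adipocyte markers was 5.62, against 7.03 to 7.45 on the other pregnancy arrays. The luminal and alveolar mean was the highest of the pregnancy arrays there (10.97, against 10.69 to 10.78). The endothelial (7.75) and T cell (5.78) means were the lowest. The part of these cells in the Plpp5 value was not tested. Without that array Plpp5 rose by 1.08 (limma adjusted p = 0.000853).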

How the results depend on the processing

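Across 19 alternatives, Lpin1, Plpp2, Plpp4 and Plpp5 kept their direction and call, with log2 fold changes of 1.56 to 1.69, -1.71 to -1.56, 3.75 to 4.25 and 0.85 to 1.08. Lpin2 (adjusted p 0.0569 to 0.193), Lpin3 (0.0633 to 0.306) and Plpp3 (0.142 to 0.992) were called in none. Plpp1 ran from 0.48 to 0.95 (adjusted p up to 0.203) and was called under 2 alternatives, given with its values, and in the endothelial fit chosen after its tie with those markers was seen. The number of members called higher was 3 or 4 with an array left out, and of members called lower 1. Over all genes, higher calls were 3719 with arrays centred on the median and 6089 on the brighter 60%, and 1537 to 2487 with an array left out. The cause was not tested. Replicate numbers are shared between the stages in the labels. The label letters are A, B and C at both stages, but replicate 4 is E in lactation and F in pregnancy. Deviations of same-numbered arrays correlated at 0.242, -0.164, 0.151 and 0.178. Not every pair was over 0.1, and the numbers were not taken to pair the arrays. Still, 5 of 8 arrays correlated best with their own number, a hint from the data and not the design. With the replicate block 3 members were called higher and 1 lower, as without it, 10 list genes higher and 10 lower, and 2530 and 3935 of all genes. Lpar2 (limma adjusted p = 0.0586), S1pr5 (0.0529) and Plppr4 (0.0525) were not called with the block. The 4 arrays per stage limit the precision.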

Other observations

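The 3 members that rose ranked the lactation arrays alike. Plpp4, Lpin1 and Plpp5 were each lowest on replicate 1, followed by replicates 3 and 4, and highest on replicate 2. For Plpp4 these values were 7.95, 8.58, 9.23 and 9.44. For Lpin1 they were 9.70, 9.99, 10.05 and 10.08, and for Plpp5 8.64, 8.78, 9.14 and 9.17. The order of replicates 4 and 2 thus rests on small differences for Lpin1 and Plpp5. On replicate 2 the marker means of basal (8.45), fibroblast (6.49), endothelial (7.39) and macrophage (5.89) lists were the lowest of the lactation arrays, and on replicate 1 that of adipocytes was the highest (8.11) and lowest on replicate 4 (6.70). The luminal and alveolar mean was lowest on replicate 1 (10.64) and highest on replicate 2 (10.75), with replicates 3 and 4 in the other order than the members. The part of these cells was not tested. The order is a description of 4 arrays. On the pregnancy arrays the 3 genes did not share an order.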
